A study of Mus musculus with 4 samples.

Results

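The 10 genes described here encode the 4 Notch receptors (*Notch1*, *Notch2*, *Notch3*, *Notch4*), 4 of their ligands (*Jag1*, *Jag2*, *Dll1*, *Dll4*) and 2 target genes (*Hes1*, *Hey1*). They were chosen by name as the rows with these symbols, 10 of the 45802 gene symbols in the deposited table. All 10 had a value in each of the 4 libraries, as did 14415 symbols in all.

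The libraries were made from total RNA of mouse periosteal stromal cells, 2 from PDGFRα reporter+ and 2 from PDGFRα reporter- cells. The periosteum is the cell layer around bone that supplies bone-forming progenitors. Cells of both populations came from male Pdgfrα-mTmG mice 9 to 10 weeks old, in which the *Pdgfra* promoter drives a tamoxifen-dependent Cre (PDGFRα-CreER) and recombination turns membrane tdTomato into membrane GFP. Tamoxifen (150 mg/kg daily over 5 days) was given to all mice, and the bones were taken 14 days after the last injection. The labels give a pool of 3 to 6 mice for each population, and the methods a somewhat larger number. The pooled cells were cultured for 1 passage with basic fibroblast growth factor (bFGF) at 10 ng/mL. Sorting then removed cells positive for CD31, CD45 or Ter119 and split the remaining cells into reporter+ (GFP) and reporter- (tdTomato). The reporter therefore records *Pdgfra* promoter activity at the time of tamoxifen and not at the time of sorting. The *Pdgfra* transcript had log2 values of 7.78 and 7.62 in the reporter+ libraries and 7.87 and 7.44 in the reporter- libraries, so that the populations overlapped. All 14 stromal markers examined, *Prrx1*, *Col1a1* and *Twist1* among them, had a value in every library.

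The deposited values are log2 values after quantile normalization, which gives every library the same range, from -10.07 to 11.73, with a median of 1.48. A blank marks a gene without signal. The linear unit under the logarithm is not stated, nor whether it accounts for gene length, and the sequencing depth is unknown. Levels were therefore compared between libraries and not between genes. The exception is the summed levels of marker lists, which add genes in this unit, so that genes with high values weigh most. The headings of the table give each library a population and the number 2 or 3. What the number stands for is not written in the labels. Across genes, which are not independent replicates, a reporter+ and a reporter- library that share a number had correlations of 0.984 (number 2) and 0.982 (number 3). Libraries of the same population had 0.952 (reporter+) and 0.957 (reporter-). Differences between populations are therefore also given within each number, where they rest on 1 library against 1 and carry no test.

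Notch receptors are single-pass membrane proteins that bind Delta-like and Jagged ligands on neighbouring cells. Ligand binding exposes the receptor to cleavage by ADAM proteases and then by γ-secretase, and the released intracellular domain joins the DNA-binding protein RBPJ in the nucleus and switches on *Hes* and *Hey* genes, which encode repressors. In skeletal progenitor cells, Notch signaling is known to hold back osteoblast differentiation, and in blood vessels it guides arterial and mural cell identity.

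Promoter sequences from RefSeq (GRCm38.p6) were found for 8 of the 10 genes, with 2 windows for *Dll1* and none for *Hes1* and *Hey1*. The 250 bases upstream of each start were searched on both strands for 3 motifs, none of which contains another: GTGGGAA, the core bound by RBPJ, CACGTG, an E-box bound by HEY and HES proteins, and CACGCG, a class C site bound by HES proteins. Over all 32851 promoter windows of this length, these letters were present in 5.42%, 6.02% and 7.62%. GTGGGAA and CACGTG were found for 0 of the 8 genes, and CACGCG for 4 (*Notch2*, *Jag1*, *Dll1* and *Dll4*), for *Dll1* in 1 of its 2 windows. The percentages count windows and not genes, and were not matched for base composition. The windows of the 8 genes held between 56% (*Dll1*) and 87.2% (*Jag2*) G and C. Whether the shares differ was not tested. The stretches from 250 to 31 bases upstream are printed 5′ to 3′ for *Notch2*, the receptor with an adjusted p under 0.05 between library numbers (a call lost whichever library was left out), for *Dll4*, the ligand whose populations did not overlap, and for *Hes5*, a direct Notch target with no value in any library. Capitals mark CACGCG in *Notch2* and *Dll4*, and GTGGGAA or its reverse complement in *Hes5*. A match of letters is a description and not a measured binding site.
Notch2 (chr3:98013288-98013507, plus strand): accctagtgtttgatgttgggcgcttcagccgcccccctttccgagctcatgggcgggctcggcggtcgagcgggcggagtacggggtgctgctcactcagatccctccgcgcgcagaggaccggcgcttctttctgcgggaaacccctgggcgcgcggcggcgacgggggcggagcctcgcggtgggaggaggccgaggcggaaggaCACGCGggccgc
Dll4 (chr2:119325534-119325753, plus strand): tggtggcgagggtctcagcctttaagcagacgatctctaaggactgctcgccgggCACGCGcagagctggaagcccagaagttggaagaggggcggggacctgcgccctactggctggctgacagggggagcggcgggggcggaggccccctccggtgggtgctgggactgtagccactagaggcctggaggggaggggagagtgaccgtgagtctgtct
Hes5 (chr4:154960673-154960892, plus strand): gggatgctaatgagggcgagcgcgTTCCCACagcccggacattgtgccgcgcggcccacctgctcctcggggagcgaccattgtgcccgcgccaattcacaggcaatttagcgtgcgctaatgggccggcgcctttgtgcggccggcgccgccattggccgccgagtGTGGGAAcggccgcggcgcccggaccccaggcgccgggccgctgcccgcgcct
The letters in *Hes5* start 226 and 83 bases upstream, those in *Dll4* 195 bases and those in *Notch2* 42 bases upstream.

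The first comparison asked whether the Notch genes differed between PDGFRα reporter+ and PDGFRα reporter- cells. The 4 receptors each had a lower mean in reporter+ cells and were lower there within both library numbers, by between 1.06-fold (*Notch2*) and 1.90-fold (*Notch4*). *Dll4* and *Hes1* were also lower within both numbers, with lower means by 3.02-fold and 2.20-fold. These folds are of low values: with a pseudocount of 1 on the linear scale the log2 differences were -0.05 and -0.27, and that of *Notch4* -0.15. The remaining ligands and *Hey1* went in opposite directions in the 2 numbers. The populations did not overlap for 2 genes, *Notch3* and *Dll4*, both lower in reporter+ cells. Across all 14415 genes, 8.10% were lower and 7.59% were higher without overlap. None of the 10 genes passed the test (limma without the library number, Benjamini-Hochberg over all genes tested, adjusted p of 1 for each). In this fit 0 had an unadjusted p under 0.05. Of all genes, 0% passed the adjusted threshold of 0.05 and 0.909% (131 genes) had an unadjusted p under 0.05. In bulk RNA, fewer cells that express a gene and less RNA per cell cannot be told apart.

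**Figure D1:**
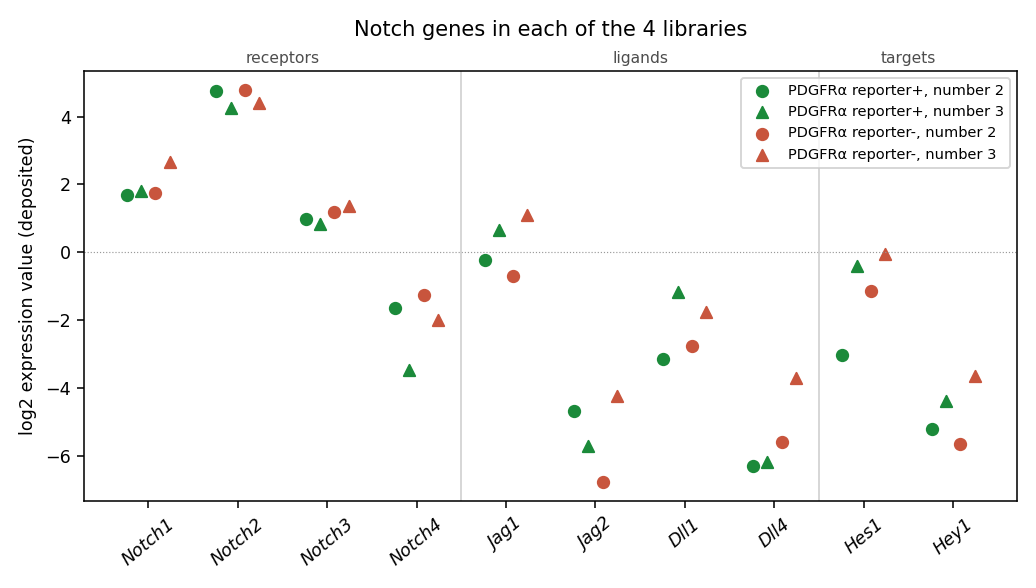
Deposited log2 expression value (y axis) of each of the 10 Notch genes (x axis, grouped as receptors, ligands and targets) in the 4 libraries, with 1 point per library, green for PDGFRα reporter+, red for PDGFRα reporter-, circles for number 2 and triangles for number 3. The red points of *Notch3* and *Dll4* lie above both green points, and for *Jag1*, *Dll1*, *Hes1* and *Hey1* both triangles lie above both circles.

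*Notch1* (chromosome 2, 26457903 to 26516663, minus strand) encodes the receptor most widely used in development. Its log2 values were 1.70 and 1.82 in reporter+ libraries 2 and 3 and 1.74 and 2.65 in reporter- libraries 2 and 3. Reporter- library 3 stood above the other 3 libraries, which lay close together, and the populations overlapped. The means were 1.76 ± 0.08 (SD, n = 2) and 2.20 ± 0.65, which differed by -0.44 (SE 0.35). This value was made up of -0.04 within number 2 and -0.84 within number 3, so that the difference was seen almost wholly in number 3, and it was 0.02 without reporter- library 3.

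*Notch2* (chromosome 3, 98013527 to 98150361, plus strand) encodes the receptor whose gain of function in humans causes bone loss. It had log2 values of 4.75 and 4.26 in reporter+ cells and 4.77 and 4.41 in reporter- cells. The 2 libraries numbered 2 were nearly equal and both above the libraries numbered 3. The log2 fold change between populations was -0.09 (SE 0.24), with a 95% confidence interval from -0.73 to 0.56. The differences within the numbers were -0.03 and -0.15, and the value was 0.16 without reporter+ library 3.

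*Notch3* (chromosome 17, 32120820 to 32166852, minus strand) encodes a receptor typical of pericytes and vascular smooth muscle. Its values were 0.98 and 0.83 in reporter+ libraries and 1.18 and 1.36 in reporter- libraries. Both reporter- libraries were above both reporter+ libraries, and libraries of a population lay within 0.18 of each other. The means were 0.91 ± 0.10 (SD, n = 2) and 1.27 ± 0.13. The log2 fold change of -0.36 (SE 0.23) exceeded the SD of either population and was -0.20 and -0.53 within the numbers.

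*Notch4* (chromosome 17, 34564268 to 34588503, plus strand) encodes a receptor mainly of endothelial cells. Its log2 values were -1.65 and -3.47 in reporter+ cells and -1.27 and -2.00 in reporter- cells. Reporter+ library 3 was lowest, and the populations overlapped because reporter+ library 2 was above reporter- library 3. The difference of -0.92 (SE 0.78) was -0.38 within number 2 and -1.47 within number 3, and -0.01 without reporter+ library 3.

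*Dll4* (chromosome 2, 119325784 to 119335962, plus strand) encodes the Delta-like ligand of arterial and sprouting endothelium. Its log2 values were -6.29 and -6.18 in reporter+ libraries and -5.58 and -3.71 in reporter- libraries, all low on this scale. Both reporter- libraries were higher, with reporter- library 3 well above the rest. The means were -6.24 ± 0.08 (SD, n = 2) and -4.65 ± 1.33, and the log2 fold change of -1.59 (SE 0.90) was -0.71 within number 2 and -2.47 within number 3. It was -0.65 without reporter- library 3 and -2.53 without reporter- library 2.

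*Jag1* (chromosome 2, 137081456 to 137116644, minus strand) encodes a Jagged ligand also made by osteoblast-lineage cells. It had log2 values of -0.23 and 0.65 in reporter+ libraries 2 and 3 and of -0.71 and 1.10 in reporter- libraries 2 and 3. Both libraries numbered 3 were above both numbered 2, whichever the population. The log2 fold change between populations was 0.02 (SE 0.72), with 0.48 and -0.45 within the numbers. Its confidence interval ran from -1.91 to 1.95 in this fit, which leaves the library number out. With the number as a replicate block the SE was 0.28.

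*Jag2* (chromosome 12, 112907819 to 112929776, minus strand), the second Jagged ligand, was not ordered by population or by number. Its log2 values were -4.67 and -5.70 in reporter+ cells and -6.76 and -4.23 in reporter- cells. The reporter+ libraries lay between the reporter- libraries. Between the means there was a difference of 0.32 (SE 1.11), with differences of 2.10 within number 2 and -1.47 within number 3.

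*Dll1* (chromosome 17, 15367354 to 15376872, minus strand), the Delta-like ligand of somite and neural development, had log2 values of -3.16 and -1.16 in reporter+ libraries and of -2.75 and -1.75 in reporter- libraries. The reporter+ libraries were the lowest and the highest of the 4. Their mean exceeded that of the reporter- libraries by 0.09 (SE 0.86), with -0.40 and 0.59 within the numbers.

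*Hes1* (chromosome 16, 30064384 to 30067796, plus strand) encodes a repressor that is the most general target of Notch signaling and also answers to other pathways. Its log2 values were -3.04 and -0.42 in reporter+ libraries 2 and 3 and -1.15 and -0.04 in reporter- libraries 2 and 3. Reporter+ library 2 was far below the other libraries, and the populations overlapped. The means were -1.73 ± 1.86 (SD, n = 2) and -0.59 ± 0.79, and the SD in reporter+ cells exceeded the difference of -1.14 (SE 1.02). The latter was -1.89 within number 2 and -0.38 within number 3, and 0.18 without reporter+ library 2.

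*Hey1* (chromosome 3, 8663359 to 8667256, minus strand) encodes a related repressor. Its log2 values were -5.19 and -4.39 in reporter+ cells and -5.65 and -3.65 in reporter- cells. The reporter+ libraries lay between the reporter- libraries. The log2 fold change was -0.14 (SE 0.94), with 0.46 and -0.75 within the numbers, so that *Hes1* and *Hey1* differed in direction within number 2.

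Within both library numbers, 6 of the 10 genes were lower in reporter+ cells (*Notch1*, *Notch2*, *Notch3*, *Notch4*, *Dll4*, *Hes1*), 0 were higher and 4 went both ways. Over all genes tested, 24.8% were lower and 22.1% higher within both numbers. Among the 10 genes the median difference was -0.25, beside -0.004 over all genes, and that of the 4 receptors was -0.40. For *Notch1* and *Notch2* the difference within number 2 was close to 0. With the library number as a replicate block, 0.201% of all genes (29) had an adjusted p under 0.05, and 0 of the 10 Notch genes did. The smallest adjusted p among the 10 was then 0.545, for *Hes1*, whose unadjusted p was 0.0199 (limma). The SE with the block was smaller for each of the 10, such as 0.40 for *Hes1* and 0.80 for *Dll4*. The SD and SE values given gene by gene above, but for the block SE of *Jag1*, leave the number out. They thus include the difference between numbers.

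**Figure D2:**
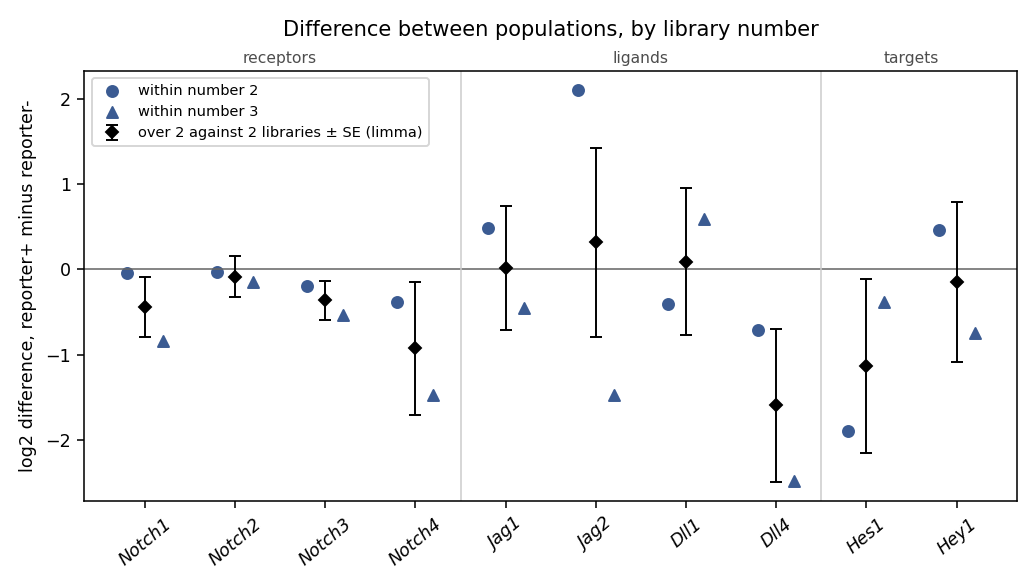
Log2 difference between PDGFRα reporter+ and PDGFRα reporter- cells (y axis) for the 10 Notch genes (x axis), within number 2 (blue circles) and within number 3 (blue triangles), with the difference of the means of 2 libraries (black diamonds, bars are ± SE from limma). Circle and triangle both lie below 0 for the 4 receptors, *Dll4* and *Hes1*, and on opposite sides of 0 for *Jag1*, *Jag2*, *Dll1* and *Hey1*.

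Markers of other cell types were set beside these values, and no gene of the endothelial, mural, Schwann cell, skeletal muscle or macrophage list passed the test between populations (limma, adjusted p of 1). With the replicate block 1 mural and 2 macrophage markers passed. Of 16 endothelial markers, 10 had a value in all 4 libraries, and 9 of these had a lower mean in reporter+ cells. *Pecam1*, the gene of the sorted antigen CD31, had log2 values of -4.68 and -4.79 in reporter+ libraries and -1.99 and -1.11 in reporter- libraries. *Cdh5*, the junction protein VE-cadherin, had -4.75 and -6.40 compared with -1.97 and -0.67. *Robo4* and *Sox17* were blank in both reporter+ libraries and had low values, between -7.88 and -3.12, in the reporter- libraries. The log2 of the summed linear level of the 16 markers was 2.21 and 2.12 in reporter+ and 2.66 and 2.93 in reporter- libraries. *Vwf* (0.09, SE 0.69), *Fli1* (-0.04, SE 0.41) and *Egfl7* (-0.04, SE 0.24) had differences near 0. Reporter- library 3, the highest for *Pecam1* and *Cdh5*, was also the highest for *Dll4* but not for *Notch4*. Of 12 mural markers, 11 had a value in all libraries and *Higd1b* in none. A lower mean in reporter+ cells was found for 8 of the 11, such as *Myh11* (log2 fold change -2.39, SE 0.44) and *Actg2* (-2.10, SE 0.46), and the summed level was 4.30 and 4.99 compared with 5.36 and 5.55. The 3 mural markers with a higher mean were *Kcnj8* (0.94, SE 0.42) and *Abcc9* (0.44, SE 0.27), both without overlap, and *Rgs5* (0.08, SE 1.12). Of 7 Schwann cell markers with a value in all libraries, 6 had a lower mean in reporter+ cells, such as *Ngfr* (-2.90, SE 1.17), and of 3 skeletal muscle markers 2 did, *Acta1* and *Myh3*. Macrophage markers went the other way, with all 16 having a higher mean in reporter+ cells and a summed level of 7.97 and 8.20 compared with 6.64 and 7.56. Most of that sum came from *Lyz2*, which alone had 7.65 and 7.88 compared with 6.27 and 7.25. *Ptprc*, the gene of the sorted antigen CD45, had -1.28 and -0.39 compared with -2.30 and -1.22, so that the populations overlapped. The part of these cell types in the values of the Notch genes was not tested.

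The second comparison asked how the Notch genes differed between libraries numbered 3 and libraries numbered 2. The 4 ligands and both target genes had higher means in number 3, by between 1.68-fold (*Jag2*) and 3.65-fold (*Hes1*), whereas *Notch2* and *Notch4* had lower means, by 1.34-fold and 2.43-fold. With a pseudocount of 1 the log2 differences were smaller, at 0.72 for *Jag1*, 0.54 for *Hes1*, 0.28 for *Dll1*, -0.23 for *Notch4*, 0.06 for *Hey1*, 0.04 for *Dll4* and 0.02 for *Jag2*. By limma, *Jag1* was higher and *Notch2* lower in number 3. The 2 numbers did not overlap for 7 genes, of which *Notch1*, *Jag1*, *Dll1*, *Hes1* and *Hey1* were higher in number 3 and *Notch2* and *Notch4* lower. Over all genes tested, 36.4% were higher and 28.8% lower without overlap, and 8.26% were higher and 7.06% lower with an adjusted p under 0.05, so that 1 of 10 in each direction is close to the share of all genes. The number is in the headings only, and whether it marks a preparation of cells, a sequencing run or something else cannot be told apart here.

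*Jag1* rose in number 3 by 1.35 on the log2 scale (SE 0.26, adjusted p = 0.0330), by 0.88 in reporter+ and 1.81 in reporter- cells. *Notch2* fell by 0.43 (SE 0.09, adjusted p = 0.0388), by 0.49 in reporter+ and 0.37 in reporter- cells. Both calls were lost whichever library was left out, with adjusted p-values from limma between 0.0645 and 0.140 for *Jag1* and between 0.0527 and 0.203 for *Notch2*, and without a variance trend (0.0781 and 0.113).

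*Dll1* was 2.82-fold higher in number 3 (SE 0.36 on the log2 scale, adjusted p = 0.0534), with log2 differences of 1.99 in reporter+ and 1.00 in reporter- cells. For *Hes1* the difference was 1.87 (SE 0.64, adjusted p = 0.111), with 2.62 and 1.11, and 0.92 without reporter+ library 2. For *Hey1* it was 1.41 (SE 0.56, adjusted p = 0.151), with 0.80 and 2.01. The target genes, *Jag1* and *Dll1* were thus higher in number 3 in both populations. So were *Dll4* (0.11 in reporter+ and 1.88 in reporter- cells) and *Notch1*. *Notch4* was lower in number 3 in both, with -1.82 in reporter+ and -0.73 in reporter- cells (difference -1.28, SE 0.55, adjusted p = 0.172). It ran from -2.01 without reporter- library 3 to -0.55 without reporter+ library 3. *Notch1* differed by 0.51 (SE 0.28), with 0.12 and 0.91, and by 0.09 without reporter- library 3 and 0.93 without reporter+ library 3. *Notch3*, *Jag2* and *Dll4* had libraries of the 2 numbers that overlapped, with differences of 0.02 (SE 0.22), 0.75 (SE 0.97) and 0.99 (SE 0.98).

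With the population as a term in the model, 21.3% of all genes had an adjusted p under 0.05 for the number, and so did 4 of the 10 Notch genes: *Jag1* (adjusted p = 0.00928), *Hes1* (0.0113), *Notch2* (0.0304) and *Dll1* (0.0355). That model without a variance trend, chosen after seeing the data, called 0 genes of all, beside 3909 with an unadjusted p under 0.05. Marker lists were set beside these values. Of 10 proliferation markers, 9 had a higher mean in number 3 and 3 passed the test, beside 8.26% of all genes. In reporter+ cells all 10 were higher in number 3, whereas in reporter- cells 5 were lower, such as *Mki67* (1.11 and -0.51). Of 16 macrophage markers, 14 had a higher mean. With the population as a term 8 of the 16 passed, and without it 0 (limma), 1 having an unadjusted p under 0.05. Of all genes, 7837 of 14415 had a higher mean in number 3. Of the 11 mural markers 6 had a higher and 5 a lower mean in number 3, and those that passed went opposite ways, *Rgs5* (2.16, SE 0.33, adjusted p = 0.0202) and *Cspg4* (-2.16, SE 0.37, adjusted p = 0.0251). Of 10 endothelial markers with a value in all libraries, 6 had a higher and 4 a lower mean in number 3. Those that passed by limma were *Tek* (3.32, SE 0.43, adjusted p = 0.0140) and *Erg* (-3.03, SE 0.28, adjusted p = 0.00877). Among 7 Schwann cell markers, 1 had a higher and 6 a lower mean. Of these, 0 passed without the population as a term and 1 with it. The part of these cell types in the differences of the Notch genes was not tested.

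**Figure D3:**
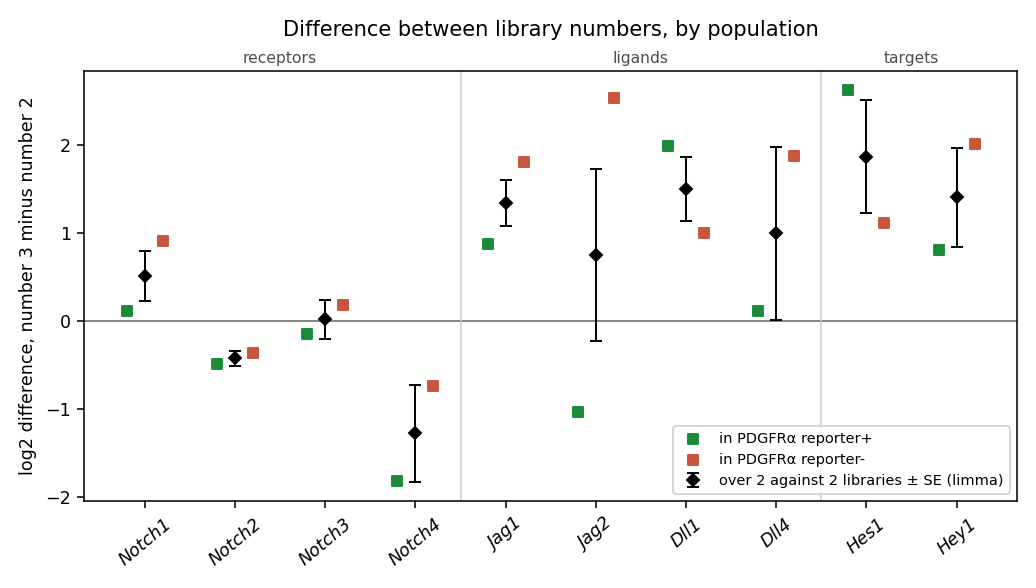
Log2 difference between libraries numbered 3 and libraries numbered 2 (y axis) for the 10 Notch genes (x axis), in PDGFRα reporter+ cells (green squares), in PDGFRα reporter- cells (red squares) and over both (black diamonds, bars are ± SE from limma). Both squares lie above 0 for *Notch1*, *Jag1*, *Dll1*, *Dll4*, *Hes1* and *Hey1*, and below 0 for *Notch2* and *Notch4*.

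The rest of the pathway was covered by a list of 69 genes in 7 groups, of which 61 had a value in all libraries, 7 in some and *Hes5* in none. Between the populations, 20 of the 61 genes were higher and 41 lower in reporter+ cells by their means, and the median difference was -0.06. Over all 14415 genes, 7076 had a higher and 7339 a lower mean. The populations did not overlap for 3 higher and 7 lower of the 61, beside 7.59% and 8.10% of all genes, and 0 genes passed the test (limma, adjusted p of 1 for each), beside 1 with an unadjusted p under 0.05, *Mfap5*.

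The core machinery differed little between populations. Of 10 genes for receptor cleavage, among them *Adam10*, *Adam17* and the γ-secretase subunit gene *Ncstn*, the log2 fold changes ran from -0.09 to 0.23. *Ncstn*, nicastrin, had values of 5.23 and 5.19 in reporter+ and 5.22 and 5.18 in reporter- libraries. Of the 12 genes of the nuclear complex, 3 had a higher and 9 a lower mean in reporter+ cells, with a median of -0.05. *Rbpj*, the DNA-binding partner of all 4 receptors, had values of 4.99 and 4.94 compared with 5.30 and 4.98, and the means differed by -0.18 (SE 0.17). The corepressor gene *Ctbp1* had lower values in reporter+ libraries without overlap (-0.14, SE 0.13).

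*Mfap5*, a microfibril protein reported to bind Jagged1 and Notch1, had log2 values of 3.01 and 3.35 in reporter+ and 3.72 and 4.07 in reporter- libraries. Both reporter- libraries were higher, and the difference was nearly equal within the numbers (-0.71 and -0.73). Its log2 fold change was -0.72 (SE 0.21), and its adjusted p was 0.0642 with the replicate block. Of the sugar-adding enzymes, *Gxylt2*, a xylosyltransferase, had a higher value without overlap (0.49, SE 0.30). *Pofut1*, which adds the O-fucose that ligand binding needs, had a lower one (-0.18, SE 0.17).

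Several canonical target genes were blank in some or all libraries. *Hes5*, the gene whose promoter holds GTGGGAA at 2 places above, had no value, *Hey2* had a value in reporter+ library 2 alone (-6.81) and *Heyl* in reporter- library 3 alone (-7.63). *Nrarp*, a feedback inhibitor of the nuclear complex, was blank in reporter+ library 2 and had values of -6.73 in reporter+ library 3 and -5.16 and -4.44 in reporter- libraries. *Mfng*, a fringe glycosyltransferase, was blank in reporter- library 2 and had -6.61, -5.52 and, in reporter- library 3, -3.16. Genes that Notch shares with other pathways had values in all libraries, such as *Id1* (2.46 and 2.65 compared with 2.13 and 3.57).

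Between the library numbers, 29 of the 61 genes had a higher and 32 a lower mean in number 3. In each direction 3 passed the test, beside 8.26% and 7.06% of all genes, and whether these shares differ was not tested. With the population as a term, 11 of the 61 passed, beside 21.3% of all genes. *Mfap2*, another microfibril protein, was higher by 1.41 (SE 0.09, adjusted p = 0.00578), with values of 2.01 and 2.00 in number 2 and 3.39 and 3.43 in number 3. *Dtx4*, a Deltex ubiquitin ligase, rose by 0.84 (adjusted p = 0.0395) and the xylosyltransferase gene *Xxylt1* by 0.48 (adjusted p = 0.0434). The genes that fell were *Neurl1a*, a ubiquitin ligase that drives ligand endocytosis, by 1.72 (adjusted p = 0.0317), *Sox9*, a cartilage regulator, by 0.73 (adjusted p = 0.0391) and *Ccn3*, by 0.67 (adjusted p = 0.0158). *Dlk1*, a noncanonical ligand, had a difference of 1.25 (SE 0.43), *Id1* of 0.82 (SE 0.32) and *Dtx3l*, a Deltex-like ligase, of -0.89 (SE 0.22), none of which passed, although all 3 did with the population as a term (adjusted p of 0.0186, 0.0471 and 0.0166).

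**Figure D4:**
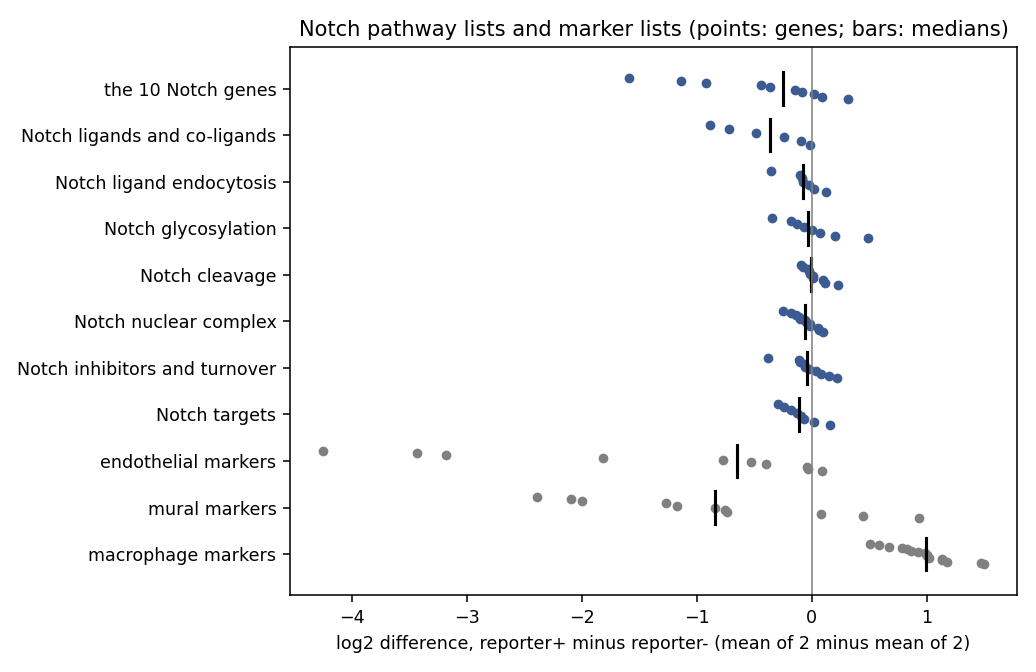
Log2 difference between PDGFRα reporter+ and PDGFRα reporter- cells (x axis, mean of 2 libraries minus mean of 2) for each gene with a value in all 4 libraries (points), by list (y axis), with the median of each list as a black bar. Blue points are the 10 Notch genes and the 7 pathway groups, grey points the marker lists. The median of the 10 Notch genes is -0.25, the cleavage genes lie between -0.09 and 0.23, and the macrophage markers all lie above 0.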

How the data were processed

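Total RNA of 4 libraries was sequenced by the authors as stranded paired-end Illumina libraries. The submitters' processing notes name bcl2fastq 2.17.1.14, Partek 7.0 and the build GRCm38.p6, without their roles. The aligner, the counting, the annotation and any filter behind the deposited values are not given in the sources used here. The authors deposited quantile-normalized log2 values, with 1 column per library and no counts, so that no counting error can be given. Columns were assigned to a population by their headings. Whether libraries came from separate animals is stated only as pools, and p-values measure the spread between these libraries.

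The 14415 genes measured in every library were fitted with limma 3.58.1 in R 4.3.3 (lmFit, eBayes with a variance trend, two-sided, no block), separately for population and for library number, and p-values were adjusted by Benjamini-Hochberg across these genes (threshold 0.05). SE values are those of limma. With 2 libraries against 2, an exact permutation test cannot give a p below 0.333 and was not used. The model was tested on simulated data. Tables were made in Python 3.11.15 with pandas 2.3.3.

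The 10 genes and the lists were chosen with earlier results of these data known. From the pathway list, the text names genes past the threshold and the 5 with the largest absolute difference among genes that do not overlap and average 0 or more on the log2 scale, apart from a result that is not reported here; markers and the other genes named were chosen after their values were seen. 1 listed symbol (*Ccn3*) was found under its synonym *Nov*. Positions are those of GENCODE M21 on GRCm38. Of the genes that overlap the 10 Notch genes in GENCODE, such as *Gm14207* opposite to the start of *Dll4*, 0 had a value in the table.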

Additional observations from a re-analysis of the deposited data

Results flagged for a closer look

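For 4 of the 10 genes the difference between PDGFRα reporter+ and PDGFRα reporter- cells had opposite signs within library numbers 2 and 3. The difference within number 2 minus the difference within number 3 was 0.93 for *Jag1*, 3.57 for *Jag2*, -0.99 for *Dll1* and 1.21 for *Hey1*. With 1 library of each population per number, whether these differences differ was not tested.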

How the results depend on the processing

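No Notch gene passed the adjusted threshold between populations under any of the 10 alternative settings, 4 of which leave out a library, or the 1 chosen after seeing the data, although a mean of at least 0 left only *Notch1*, *Notch2*, *Notch3* and *Jag1* to test. All genes together gave 29 calls with the replicate block, 0 without it and 0 with the block and no variance trend. The pairing by number was not given by the labels; deviations of same-numbered libraries from their population mean had a correlation of 0.681 across genes. With a pseudocount of 1 the difference was -0.0438 for *Jag1* and -0.00243 for *Jag2*. Over the leave-one-out settings, which unbalance the numbers, it ran from -0.897 to 0.0169 for *Notch1*, -0.33 to 0.16 for *Notch2*, -0.89 to 0.92 for *Jag1*, -0.95 to 1.58 for *Jag2*, -0.90 to 1.09 for *Dll1*, -2.45 to 0.18 for *Hes1* and -1.15 to 0.86 for *Hey1*. It kept its sign for *Notch3*, for *Notch4* (-1.83 to -0.01) and for *Dll4* (-2.53 to -0.65). The 2 non-overlapping Notch genes became 1 with a mean of at least 0, as fewer genes are tested, and 5 to 7 with a library left out, and the 10 of the pathway list 34 to 38, as fewer libraries need to lie apart.

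Between numbers, the 2208 calls over all genes became 582 without a variance trend, 0 with the population as a term and no trend, and 225 (without reporter+ library 2) to 1034 (without reporter- library 3) with a library left out; the cause was not tested. Centring turned *Notch3* to -0.0113, and leaving out a library gave -0.25 to 0.28 for *Notch3*, -0.30 to 1.80 for *Jag2* and -0.24 to 2.23 for *Dll4*. *Notch1* passed without reporter+ library 3 (adjusted p from limma 0.0409) and *Hes1* without reporter- library 2 (0.0457). Both *Jag1* and *Notch2* lost their calls with blanks at the lowest value (0.0545 and 0.0552) and with the population as a term and no trend (0.121 and 0.199). The depth of the libraries is unknown.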
